A study of Rattus norvegicus with 15 samples.

Results

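The growth factors of the platelet-derived growth factor (PDGF), vascular endothelial growth factor (VEGF) and angiopoietin systems, with their endothelial receptors, were followed in rat liver. The 10 genes are Pdgfa, Pdgfb, Pdgfc, Pdgfd, Vegfa, Vegfc, Angpt2, Kdr, Flt1 and Tek, taken by their symbols from the 32623 genes of the count table. They were proposed with earlier results of these data known. Each symbol had 1 row, and all 10 genes passed the filter on low counts that left 14417 genes for the tests.

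RNA of whole livers of male Wistar rats was sequenced in 3 groups. Controls (n = 4) were untreated. The cirrhosis group (n = 5) inhaled CCl4, a solvent that injures hepatocytes, for 12 weeks and had phenobarbital (0.35 g/L) in the drinking water. The cirrhosis & eplerenone group (n = 5) had the same CCl4 and phenobarbital and, from week 8 to week 12, eplerenone, a blocker of the mineralocorticoid receptor, at 100 mg/kg in hazelnut spread. Rats weighed 75 to 100 g at the start, and livers were taken 7 to 10 days after the last CCl4. The study picked the sequenced livers by how well cirrhosis or the eplerenone treatment had taken effect, so they are not a random sample of the treated rats. It also excluded a control liver that lay apart from the other controls, so the spread among controls is that of the livers kept. The comparison of cirrhosis with control covers CCl4 and phenobarbital together, and the comparison of cirrhosis & eplerenone with cirrhosis covers eplerenone given during the last weeks of CCl4.

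PDGF ligands are dimers that drive growth and migration of mesenchymal cells through the receptors Pdgfra and Pdgfrb, and in injured liver they are known as mitogens of hepatic stellate cells, the precursors of the collagen-forming myofibroblasts. VEGF ligands act on endothelial cells, and signals from hepatocytes through Kdr help to keep the fenestrated lining of the sinusoids. Angiopoietins bind Tek on endothelial cells, where Angpt1 stabilizes vessels and Angpt2 mostly counteracts it.

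Between 16157491 and 21574767 reads per liver were counted on genes. Levels are given as FPM, reads per 1000000 reads on the genes tested, after TMM scaling of the libraries (edgeR), and 3 counts stood for 0.121 to 0.191 FPM. FPM are not divided by transcript length, so levels of different genes are not compared. On the first principal component of the 500 most variable genes, cirrhosis replicate 5 (13.03) lay apart from the other cirrhosis livers (-47.7 to -38.0), with controls at 44.3 to 50.6. Cirrhosis & eplerenone livers spread from -42.6 in replicate 3 to 26.8 in replicate 2. Results that rest on cirrhosis replicate 5 or cirrhosis & eplerenone replicate 3 are therefore also given without both, a pair taken from earlier results of these data. The animal labels carry number prefixes whose meaning is not given, 13 and 16 in controls and 15 and 20 in CCl4-treated rats, so the prefix and CCl4 cannot be told apart.

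Of the 10 genes, 5 passed the test between cirrhosis and control (quasi-likelihood test of edgeR, adjusted p below 0.05 by Benjamini-Hochberg across 14417 genes). Pdgfa, Pdgfb and Pdgfd rose and Vegfa and Kdr fell. In bulk tissue, fewer or more cells of a type and less or more RNA per cell cannot be told apart. The background was 20.2% of all genes tested, 13.4% higher and 6.71% lower. With eplerenone, 2 of the 10 genes were higher than in control (Pdgfb and Pdgfd), against 5.22% of all genes, 4.33% in this direction. Between cirrhosis & eplerenone and cirrhosis, 0 of the 10 passed edgeR's test and 1 of them, Kdr, had an unadjusted p below 0.05. Of all genes, 0.0139% were called. DESeq2 called 0 of the 10 and 0.513% of all genes. The livers of these 2 groups overlapped in all 10 genes, and 0.964% of all genes had no overlap. The median log2FC of the 10 genes in these 3 comparisons was 0.39, 0.36 and -0.02, and over all genes tested it was -0.01, 0.01 and 0.01. Both comparisons with control share the same 4 control livers.

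The promoters of the 5 genes that passed the test between cirrhosis and control are shown to give their sequence context. Each is the 250 bases before the start that RefSeq annotates in GRCr8, a later build than the rn6 genome on which the reads were counted. RefSeq windows were found for 8 of the 10 genes, 9 windows in all, since Vegfa has 2, of which the first is shown. Short motifs were searched on both strands, and capitals mark each match. One is the GC box, with the letters GGGCGG on the strand shown or their reverse complement. The other is the core of the sites bound by hypoxia-inducible factors, with the letters ACGTG (or, as the second form, GCGTG) or their reverse complement.
Pdgfa, chr12:20759116-20759365, plus strand: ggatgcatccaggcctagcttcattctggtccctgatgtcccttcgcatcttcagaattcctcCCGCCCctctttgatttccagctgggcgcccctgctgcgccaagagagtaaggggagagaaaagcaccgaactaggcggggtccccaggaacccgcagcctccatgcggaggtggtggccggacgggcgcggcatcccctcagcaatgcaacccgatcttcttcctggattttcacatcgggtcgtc
Pdgfb, chr7:113438344-113438593, minus strand: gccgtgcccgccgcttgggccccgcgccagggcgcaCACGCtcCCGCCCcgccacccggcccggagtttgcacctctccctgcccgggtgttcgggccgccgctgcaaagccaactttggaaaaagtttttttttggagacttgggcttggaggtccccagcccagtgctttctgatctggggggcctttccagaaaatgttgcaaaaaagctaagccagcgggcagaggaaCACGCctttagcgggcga
Pdgfd, chr8:11773258-11773507, plus strand: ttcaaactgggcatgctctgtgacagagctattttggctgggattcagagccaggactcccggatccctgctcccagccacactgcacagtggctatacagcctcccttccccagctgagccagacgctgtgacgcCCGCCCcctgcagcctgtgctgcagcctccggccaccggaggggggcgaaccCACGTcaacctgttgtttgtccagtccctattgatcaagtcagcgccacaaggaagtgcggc
Vegfa, chr9:22452604-22452853, plus strand: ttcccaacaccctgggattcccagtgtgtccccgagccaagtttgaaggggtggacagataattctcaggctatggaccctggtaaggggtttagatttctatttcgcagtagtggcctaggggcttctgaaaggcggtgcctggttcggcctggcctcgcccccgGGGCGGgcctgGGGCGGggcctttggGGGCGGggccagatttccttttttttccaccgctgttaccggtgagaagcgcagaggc
Kdr, chr14:32571813-32572062, plus strand: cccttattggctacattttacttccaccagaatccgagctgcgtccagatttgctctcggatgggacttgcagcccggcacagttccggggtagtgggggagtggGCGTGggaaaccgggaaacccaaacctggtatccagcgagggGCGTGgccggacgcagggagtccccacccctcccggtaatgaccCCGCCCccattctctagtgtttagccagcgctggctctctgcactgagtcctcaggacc
The Vegfa window held 3 GC boxes, and the other 4 windows held 1 each. The hypoxia core was matched 2 times for Pdgfb, 1 time for Pdgfd and 2 times for Kdr, and no match lay in the Pdgfa and Vegfa windows. Of 33469 RefSeq windows of the same length, 30.5% held a GC box and 36.7% a hypoxia core. Of the 8 genes with a window, 7 had a GC box and 4 a hypoxia core. Among those that did not pass, Flt1 had 3 GC boxes and 1 hypoxia core, Vegfc had 2 GC boxes, and Pdgfc had neither motif. The second Vegfa window held neither motif. No match of one motif overlapped the other in these windows. These are letter matches, and no binding was measured.

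Pdgfa (ENSRNOG00000001312, chromosome 12) encodes the A chain, whose dimer binds Pdgfra. Its level was 4.77, 4.05, 5.13 and 3.37 FPM in control replicates 2 to 5. In cirrhosis replicates 1 to 5 it was 20.1, 9.55, 23.5, 20.6 and 5.59 FPM, and in cirrhosis & eplerenone replicates 1 to 5 it was 10.5, 7.89, 13.8, 6.60 and 11.4 FPM. All livers of both CCl4-treated groups lay above all controls, as 20.2% of all genes did in either direction for cirrhosis (11.2% higher) and 10.9% for cirrhosis & eplerenone (6.42% higher). In cirrhosis Pdgfa was 3.66-fold higher than in control (log2FC 1.87, SE 0.38, adjusted p = 0.00459, edgeR). With eplerenone the log2FC against control was 1.22 (SE 0.37) with an adjusted p of 0.0695 in edgeR, and DESeq2 gave 0.0186.

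Cirrhosis and cirrhosis & eplerenone overlapped in Pdgfa, and their log2FC was -0.66 (95% interval -1.37 to 0.05, adjusted p = 0.364, edgeR). Cirrhosis replicate 5 was the lowest of its group, and cirrhosis & eplerenone replicate 3 the highest of its own. Leaving out both widens this difference by construction, to -1.04 (adjusted p = 0.0376, edgeR, in a fit that called 9.16% of all genes), so no call is read from it. No fit that left out 1 liver called Pdgfa in this comparison (adjusted p 0.0896 to 0.711).

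Pdgfb (ENSRNOG00000017197, chromosome 7) encodes the B chain, whose dimer binds both PDGF receptors and which endothelial cells use to recruit pericytes. Controls held 4 to 13 counts each, that is 0.241, 0.752, 0.733 and 0.382 FPM in replicates 2 to 5. Cirrhosis replicates 1 to 5 held 3.88, 7.43, 4.58, 6.10 and 1.13 FPM, and cirrhosis & eplerenone replicates 1 to 5 held 3.42, 1.75, 4.78, 1.30 and 4.59 FPM. Every CCl4-treated liver was above every control. Pdgfb was 8.68-fold higher in cirrhosis than in control (log2FC 3.12, SE 0.58, adjusted p = 0.00319, edgeR) and 5.96-fold higher in cirrhosis & eplerenone (log2FC 2.57, SE 0.57, adjusted p = 0.0180). The second call was lost without control replicate 2 or without control replicate 5, where adjusted p reached 0.0732. Between the CCl4-treated groups the log2FC was -0.54 (SE 0.47, adjusted p = 0.559, edgeR), and their ranges overlapped.

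Pdgfd (ENSRNOG00000029148, chromosome 8) encodes a ligand of Pdgfrb that is secreted in latent form and activated by cleavage. It was at 1.45, 0.752, 0.855 and 0.382 FPM in control replicates 2 to 5. In cirrhosis replicates 1 to 5 it was at 6.21, 6.61, 5.39, 2.82 and 1.37 FPM, and in cirrhosis & eplerenone replicates 1 to 5 at 5.57, 1.69, 9.07, 2.65 and 1.42 FPM. Control replicate 2 overlapped the lowest liver of each CCl4-treated group. Pdgfd was 5.19-fold higher in cirrhosis (log2FC 2.37, SE 0.63, adjusted p = 0.0183, edgeR), a call that was lost without control replicate 3 or control replicate 5, with adjusted p up to 0.0635. In cirrhosis & eplerenone it was 4.74-fold higher than in control (log2FC 2.24, SE 0.63, adjusted p = 0.0499). That call held in 3 of the 14 fits that left out 1 liver, with adjusted p up to 0.155, and without cirrhosis replicate 5 and cirrhosis & eplerenone replicate 3, the highest liver for Pdgfd, adjusted p was 0.0683. Against cirrhosis alone the log2FC was -0.13 (adjusted p = 0.911, edgeR).

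Pdgfc (ENSRNOG00000010695, chromosome 2) encodes the other latent ligand, which acts on Pdgfra. Its means were 6.48 ± 2.12 FPM in control (SD, n = 4), 9.68 ± 2.62 in cirrhosis (n = 5) and 10.3 ± 2.72 in cirrhosis & eplerenone (n = 5). The highest control, at 9.29 FPM, lay within the range of both CCl4-treated groups. Pdgfc did not pass the test in either comparison with control (log2FC 0.58, adjusted p = 0.133 and log2FC 0.67, adjusted p = 0.167, edgeR). In cirrhosis replicate 5, where the other 3 PDGF genes were at their lowest of the group, Pdgfc was at its highest (14.0 FPM).

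**Figure D1:**
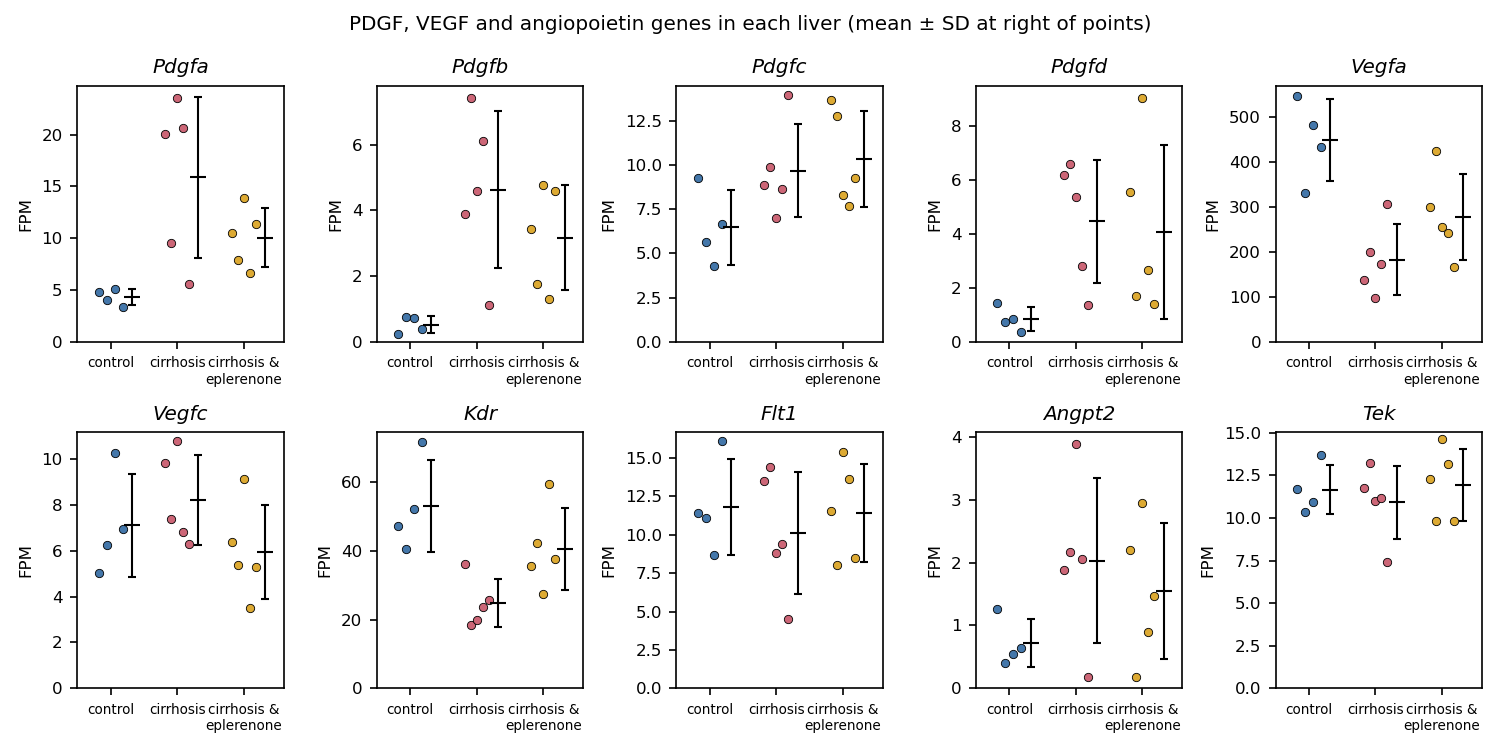
FPM of the 10 genes in each liver (y axis, linear from 0, 1 panel per gene) for control, cirrhosis and cirrhosis & eplerenone, with points for single livers and a bar for mean ± SD at the right of each group. Pdgfa and Pdgfb lie above all controls in every CCl4-treated liver, Vegfa and Kdr lie below all controls in every cirrhosis liver, and the Tek groups overlap.

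Vegfa (ENSRNOG00000019598, chromosome 9) encodes the main VEGF ligand, made by hepatocytes and many other cells. It was at 546, 331, 482 and 433 FPM in control replicates 2 to 5. In cirrhosis replicates 1 to 5 it was at 138, 199, 97.6, 172 and 307 FPM, and in cirrhosis & eplerenone replicates 1 to 5 at 299.7, 424, 256, 243 and 166 FPM. All cirrhosis livers lay below all controls, as they did for 9.03% of all genes, whereas cirrhosis & eplerenone replicate 2 lay within the control range. Vegfa was 2.45-fold lower in cirrhosis than in control (log2FC -1.29, SE 0.31, 95% interval -1.96 to -0.63, adjusted p = 0.0118, edgeR). Against control, cirrhosis & eplerenone had a log2FC of -0.69 (adjusted p = 0.219). The difference between both CCl4-treated groups was 0.60 (95% interval -0.02 to 1.23, adjusted p = 0.355, edgeR), so a return towards control with eplerenone was not detectable over the spread between livers.

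Vegfc (ENSRNOG00000011416, chromosome 16), a growth factor of lymphatic vessels, was at 5.01 to 10.3 FPM in control, 6.31 to 10.8 with cirrhosis and 3.50 to 9.11 with cirrhosis & eplerenone. The 3 ranges overlapped. The log2FC was 0.21 in cirrhosis (95% interval -0.40 to 0.82, adjusted p = 0.607, edgeR) and -0.26 in cirrhosis & eplerenone (-0.87 to 0.35, adjusted p = 0.690).

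Kdr (ENSRNOG00000046829, chromosome 14) encodes VEGF receptor 2, the main signalling receptor for Vegfa on endothelium. It was at 47.3, 40.5, 52.2 and 71.7 FPM in control replicates 2 to 5. In cirrhosis replicates 1 to 5 it was at 36.1, 18.3, 19.96, 23.5 and 25.7 FPM, and in cirrhosis & eplerenone replicates 1 to 5 at 35.5, 42.1, 27.4, 59.4 and 37.5 FPM. All cirrhosis livers were below all controls, and the cirrhosis & eplerenone livers overlapped both other groups. Kdr was 2.14-fold lower in cirrhosis than in control (log2FC -1.10, SE 0.24, 95% interval -1.62 to -0.58, adjusted p = 0.00754, edgeR). Unlike the PDGF genes, Kdr in cirrhosis replicate 5 (25.7 FPM) lay inside the range of the other cirrhosis livers.

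Kdr was the gene with an unadjusted p below 0.05 between cirrhosis & eplerenone and cirrhosis. Its log2FC was 0.71 (SE 0.23, 95% interval 0.22 to 1.20, adjusted p = 0.312, edgeR), where 14.4% of all genes had an unadjusted p below 0.05. The difference was 0.71 among rats with prefix 15 (2 against 3 livers) and 0.68 among those with prefix 20 (3 against 2). In the fit without cirrhosis replicate 5 and cirrhosis & eplerenone replicate 3, the Kdr difference was 0.82 (adjusted p = 0.0551, edgeR). That fit called 9.16% of all genes. Cirrhosis & eplerenone replicate 3 was the lowest of its group for Kdr, so leaving it out widens the difference by construction. The corresponding differences for Vegfa were 1.36 with prefix 15 and -0.08 with prefix 20, and for Pdgfa -0.85 and -0.09. For Vegfc they were -0.64 and -0.24. The sign also turned for Pdgfb (-1.02 and 0.20), Pdgfc (0.63 and -0.39) and Pdgfd (-0.95 and 0.70). It turned too for Flt1 (-0.31 and 0.88), Angpt2 (-1.67 and 1.11) and Tek (-0.12 and 0.44). The prefixes split the livers of the same comparison, so these values are no independent support for Kdr.

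Flt1 (ENSRNOG00000000940, chromosome 12) encodes VEGF receptor 1, which binds Vegfa tightly and limits its access to Kdr. It was at 8.67 to 16.1 FPM in control, 4.52 to 14.4 with cirrhosis and 8.01 to 15.4 with cirrhosis & eplerenone. The groups overlapped. The log2FC in cirrhosis was -0.22 (95% interval -0.87 to 0.43, adjusted p = 0.615, edgeR), and the sign of this small difference turned to 0.09 when libraries were scaled by total counts, a scaling that moved the median of all genes to 0.28.

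Tek (ENSRNOG00000008587, chromosome 5) encodes the angiopoietin receptor Tie2. Its means were 11.7 ± 1.45 FPM in control (SD, n = 4), 10.9 ± 2.13 in cirrhosis (n = 5) and 11.9 ± 2.11 in cirrhosis & eplerenone (n = 5). Tek had the narrowest intervals of the 10 genes, with a log2FC of -0.09 in cirrhosis (-0.51 to 0.32, adjusted p = 0.742, edgeR) and 0.04 in cirrhosis & eplerenone (-0.38 to 0.45, adjusted p = 0.946). Its sign turned with total counts as well, to 0.21 in cirrhosis.

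Angpt2 (ENSRNOG00000016696, chromosome 16), released by activated endothelium, was a low gene with 3 to 73 counts per liver. It was at 1.27, 0.405, 0.549 and 0.636 FPM in control replicates 2 to 5. In cirrhosis replicates 1 to 5 it was at 1.89, 2.16, 3.88, 2.05 and 0.179 FPM, and in cirrhosis & eplerenone replicates 1 to 5 at 2.20, 0.188, 2.95, 0.903 and 1.48 FPM. Of the cirrhosis livers, 4 lay above all controls and replicate 5 lay below all of them. The log2FC of 1.503 (SE 0.73, adjusted p = 0.149, edgeR) did not pass the test. Without cirrhosis replicate 5, the lowest liver of all, it was 1.80 (adjusted p = 0.0404), in a fit that called 32.1% of all genes. With eplerenone the log2FC against control was 1.12 (adjusted p = 0.431, edgeR).

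**Figure D2:**
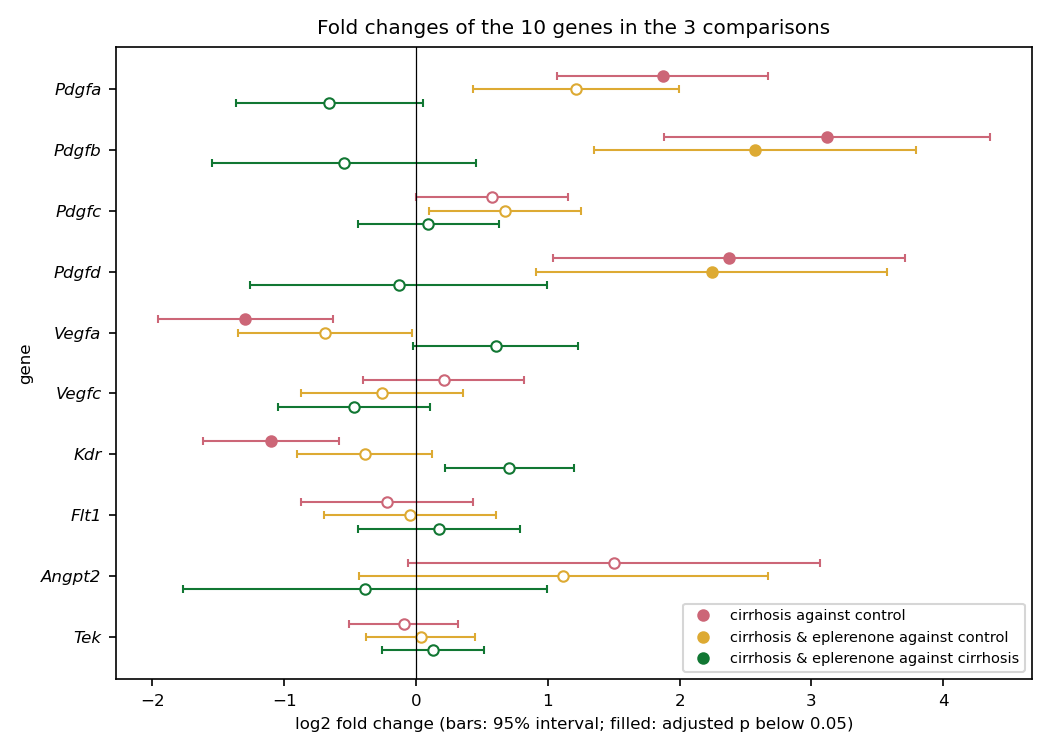
Log2 fold change (x axis) of the 10 genes (y axis) in the 3 comparisons, by colour, with 95% intervals from edgeR as bars and filled points where adjusted p is below 0.05. Filled points are 5 for cirrhosis against control, 2 for cirrhosis & eplerenone against control and 0 for cirrhosis & eplerenone against cirrhosis, where the interval of Kdr (0.22 to 1.20) does not reach 0.

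Without cirrhosis replicate 5 and cirrhosis & eplerenone replicate 3, 6 of the 10 genes passed between cirrhosis and control, the 5 above and Angpt2, where 34.2% of all genes were called. For cirrhosis & eplerenone against control, 2 passed, Pdgfa (log2FC 1.07, adjusted p = 0.0463, edgeR) and Pdgfb (log2FC 2.38, adjusted p = 0.0127), where 4.87% were called. Between the CCl4-treated groups 1 of the 10 was past the threshold, near the share of 9.16% over all genes. It was Pdgfa, for which both livers left out are the extremes named above.

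Partners of the 10 genes were read from a list of 13 further receptors, ligands and modulators, of which 11 passed the filter on low counts. Between cirrhosis and control 2 of the 11 rose, Vegfd and Pdgfra, and 0 fell, and the same 2 were higher in cirrhosis & eplerenone than in control. For cirrhosis this is near the background of 13.4% of all genes called higher, and with eplerenone the background was 4.33%. Between the CCl4-treated groups 0 of the 11 passed edgeR's test, 0 had an unadjusted p below 0.05 and 0 passed DESeq2. Over the 11 genes, the median log2FC against control was 0.65 for cirrhosis and 0.45 for cirrhosis & eplerenone.

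Vegfd, a ligand of the lymphatic receptor Flt4, was at 0.302, 0.752, 0.916 and 0.572 FPM in control replicates 2 to 5. Cirrhosis livers held 2.38 to 9.82 FPM and cirrhosis & eplerenone livers 2.25 to 7.61 FPM, all above the controls. Its log2FC was 3.41 in cirrhosis (SE 0.49, adjusted p = 0.000957, edgeR) and 2.95 in cirrhosis & eplerenone (SE 0.49, adjusted p = 0.00497). Pdgfra, the receptor of the A and C chains, was at 6.88 to 11.5 FPM in control, 11.0 to 26.7 with cirrhosis and 13.9 to 22.5 with cirrhosis & eplerenone. Its log2FC was 1.04 in cirrhosis (SE 0.26, adjusted p = 0.0131, edgeR) and 1.06 in cirrhosis & eplerenone (SE 0.26, adjusted p = 0.0263).

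Pdgfrb, the receptor of the B and D chains, had a log2FC of 0.65 in cirrhosis (SE 0.26, adjusted p = 0.0814, edgeR) and 0.28 in cirrhosis & eplerenone (adjusted p = 0.600). Angpt1, the stabilizing ligand of Tek, held 0 to 39 counts per liver (log2FC 1.41, SE 1.31 in cirrhosis, adjusted p = 0.439, edgeR). Among the proteases that process these ligands (Plat, Plau, Furin, Pcsk5, Pcsk6 and Pcsk7), Plat, the activator that cleaves Pdgfc, rose in cirrhosis (log2FC 1.85, SE 0.58, adjusted p = 0.0363, edgeR), the convertase Pcsk5 fell by 0.77 on the log2 scale (SE 0.26, adjusted p = 0.0481, edgeR), and the other proteases did not pass the test. In cirrhosis & eplerenone against control, no protease of this list passed edgeR's test (log2FC 1.31, adjusted p = 0.201 for Plat and -0.56, adjusted p = 0.236 for Pcsk5).

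Ratios of gene pairs within a liver do not depend on library scaling. Counts were compared as log2 ratios (0.5 added to each count) with exact two-sided permutation tests, 5 pairs in 3 comparisons, adjusted over the 15 tests. None of the 15 had an adjusted p below 0.05, and 3 had the smallest unadjusted p that 4 against 5 livers allow (0.0159). With 3 of the 15 permutation tests at this floor, their adjusted p could not fall below 0.0794. Their missing calls are therefore not read as a lack of difference. With the exact permutation test, Pdgfb to Pdgfrb was higher than in control by 2.29 in cirrhosis and by 2.14 in cirrhosis & eplerenone (p = 0.0159 and adjusted p = 0.0794 for each), with no overlap with controls.

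The ratio of Kdr to Cdh5, the cadherin of endothelial junctions, was 1.53 ± 0.35 in control (SD, n = 4) and 0.43 ± 0.34 in cirrhosis (n = 5). These groups did not overlap (exact permutation p = 0.0159, adjusted p = 0.0794). In cirrhosis & eplerenone it was 0.92 ± 0.54 (n = 5), which overlapped both. Cdh5 itself had a log2FC of 0.01 in cirrhosis (adjusted p = 0.979, edgeR). The ratio of Flt1 to Kdr was higher by 0.81 in cirrhosis than in control (exact permutation p = 0.0794, adjusted p = 0.298), with overlap. Cirrhosis replicate 5, at -2.50, lay among the controls.

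**Figure D3:**
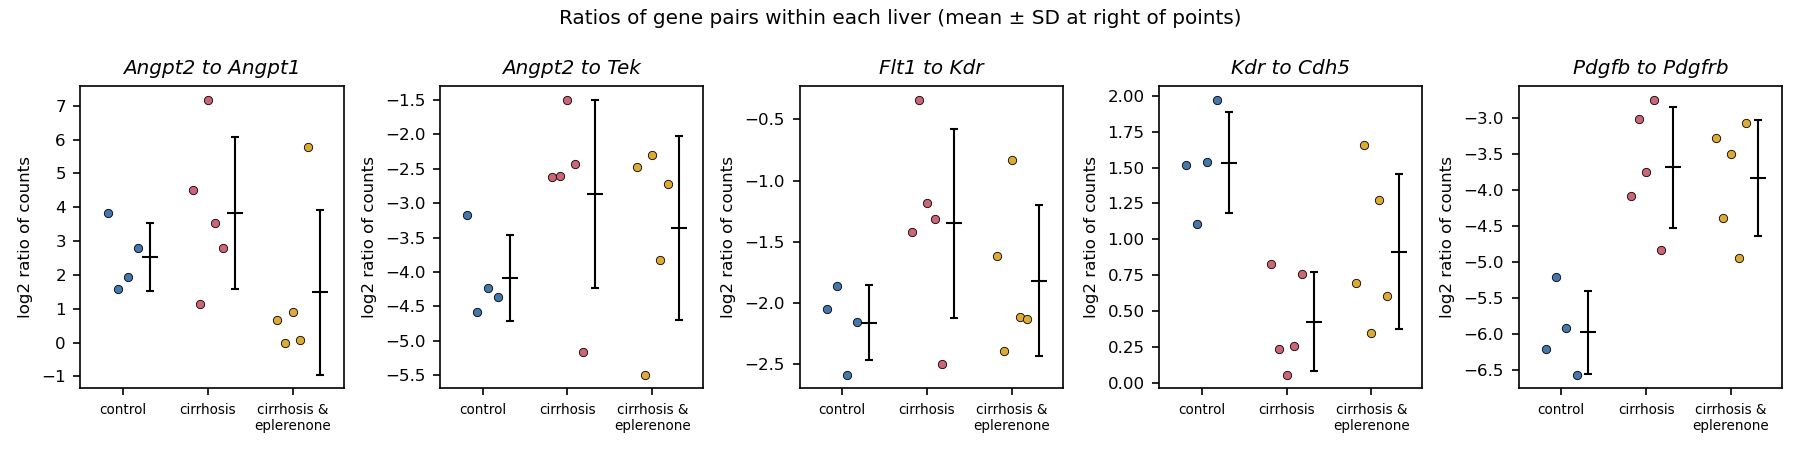
Log2 ratio of the counts of 2 genes within each liver (y axis, 1 panel per pair) for control, cirrhosis and cirrhosis & eplerenone, with points for single livers and a bar for mean ± SD. Pdgfb to Pdgfrb lies higher in all CCl4-treated livers than in all controls, and Kdr to Cdh5 lies lower in all cirrhosis livers than in all controls.

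The cell types that make or receive these signals were read from marker lists, against a background of 13.4% of all genes higher and 6.71% lower in cirrhosis and 4.33% higher in cirrhosis & eplerenone. Of 13 general endothelial markers tested, 0 passed between cirrhosis and control in edgeR, 4 had an unadjusted p below 0.05 and 3 passed DESeq2. These 4 went in both directions, with a log2FC of 1.16 for Emcn, 0.92 for Egfl7, -1.04 for Erg and -0.64 for Clec14a. The summed level of the 13 markers, in which such changes offset each other, was 159.5 to 176 FPM in control, 117 to 231 with cirrhosis and 141 to 206 with cirrhosis & eplerenone. Cldn5 was at 0 in all livers. Of 12 sinusoidal endothelial markers, 6 fell and 0 rose, among them the Fc receptor Fcgr2b (log2FC -1.52), the endocytic Ehd3 (-1.31) and Oit3 (-1.29), with a median log2FC of -0.98 over the 12. Their summed level was 348 to 423 FPM in control, 113 to 314 with cirrhosis and 244 to 336 with cirrhosis & eplerenone, and it moved in the direction of Kdr.

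Ehd3 was the 1 sinusoidal marker that passed between cirrhosis & eplerenone and cirrhosis, where 0.0139% of all genes were called. The marker list was chosen with earlier results of these data known, so this share is no test of the list. Ehd3 was at 11.2 to 18.3 FPM in cirrhosis and 32.2 to 49.1 in cirrhosis & eplerenone (log2FC 1.39, SE 0.19, adjusted p = 0.0172, edgeR). This call was lost without cirrhosis replicate 1, without cirrhosis replicate 4 and without cirrhosis & eplerenone replicate 4. It was also lost with the replicate block, and none of these fits called any gene in this comparison. The fits without cirrhosis replicate 3 and without cirrhosis & eplerenone replicate 1 or 2 called 1 gene each, whose name is not given here. Of 10 markers of capillary and sprouting endothelium, 5 rose in cirrhosis and 0 fell, among them the chemokine receptor Cxcr4 (log2FC 2.98, adjusted p = 0.00168), von Willebrand factor Vwf (2.69, adjusted p = 0.00439) and the apelin receptor Aplnr, which held 0 to 3 counts in controls. Their summed level was 34.1 to 42.1 FPM in control, 44.8 to 217 with cirrhosis and 42.6 to 152 with cirrhosis & eplerenone. Against control, 2 of these 10 were higher in cirrhosis & eplerenone.

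Of 12 markers of stellate cells and myofibroblasts, 8 rose in cirrhosis and 0 fell, with Col1a1 (log2FC 3.36), Cygb (3.20) and Acta2 (2.84) changing most, and 4 were higher in cirrhosis & eplerenone than in control. Markers of quiescent stellate cells in the list had negative values that did not pass the test, with a log2FC in cirrhosis of -1.09 for Lrat, the enzyme that stores retinol as esters (adjusted p = 0.118, edgeR), and -1.002 for Reln (adjusted p = 0.110, edgeR). The summed level of all 12 stellate and myofibroblast markers was 153 to 232 FPM in control, 271 to 626 with cirrhosis and 409 to 609 with cirrhosis & eplerenone. Col3a1 weighed most in this sum, with a mean of 216 FPM in cirrhosis and 293 in cirrhosis & eplerenone. Means of Col3a1, Lrat and Reln were higher in cirrhosis & eplerenone than in cirrhosis. Those of the other markers tested, Acta2, Tagln, Cygb and Col1a1 among them, were lower. Of the 12 markers, 0 passed edgeR's test between these 2 groups. In cirrhosis replicate 5 the sum was the lowest of the group, as Pdgfa, Pdgfb and Pdgfd were, while Pdgfc was highest there. The sums over general endothelial, capillary and cholangiocyte markers and over the partner genes were also the lowest of the group in this liver (117, 44.8, 69.3 and 93.7 FPM). Of the 2 platelet markers tested, Pf4 rose (log2FC 4.24, adjusted p = 0.000523, edgeR), with 2 to 13 counts in controls, while Itga2b had a log2FC of -0.45 (adjusted p = 0.377, edgeR). Gp1bb was at 0 in all livers and was not tested. Of 9 macrophage markers 2 rose and 1 fell, and of 7 cholangiocyte markers 6 rose, led by Sox9 (log2FC 4.18), Cftr (3.34) and Spp1 (3.01).

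Hepatocyte markers were read beside Vegfa. They summed to 178959 to 207402 FPM in control, 138733 to 196956 with cirrhosis and 108326 to 199462 with cirrhosis & eplerenone. Alb weighed most in this sum, with a mean of 122797 FPM in control. Means of Tf, Apoa1 and Cyp2e1 were higher in cirrhosis than in control, and those of the other hepatocyte markers were lower. Of 10 tested, 1 fell in cirrhosis, the transcription factor Hnf4a (log2FC -0.81, adjusted p = 0.0290, edgeR), and the median over the 10 was -0.48. DESeq2 called 4 of the 10, where it called 27.8% of all genes. Of 15 genes of the hypoxia response, in which Vegfa itself was not counted, 3 rose (Egln3 with log2FC 2.32, Ndrg1 with 1.84 and Ddit4 with 1.65) and 1 fell (Pdk1, -0.73), close to the background of 13.4% higher and 6.71% lower. The part of these cell types and of hypoxia in the levels of the 10 genes was not tested.

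**Figure D4:**
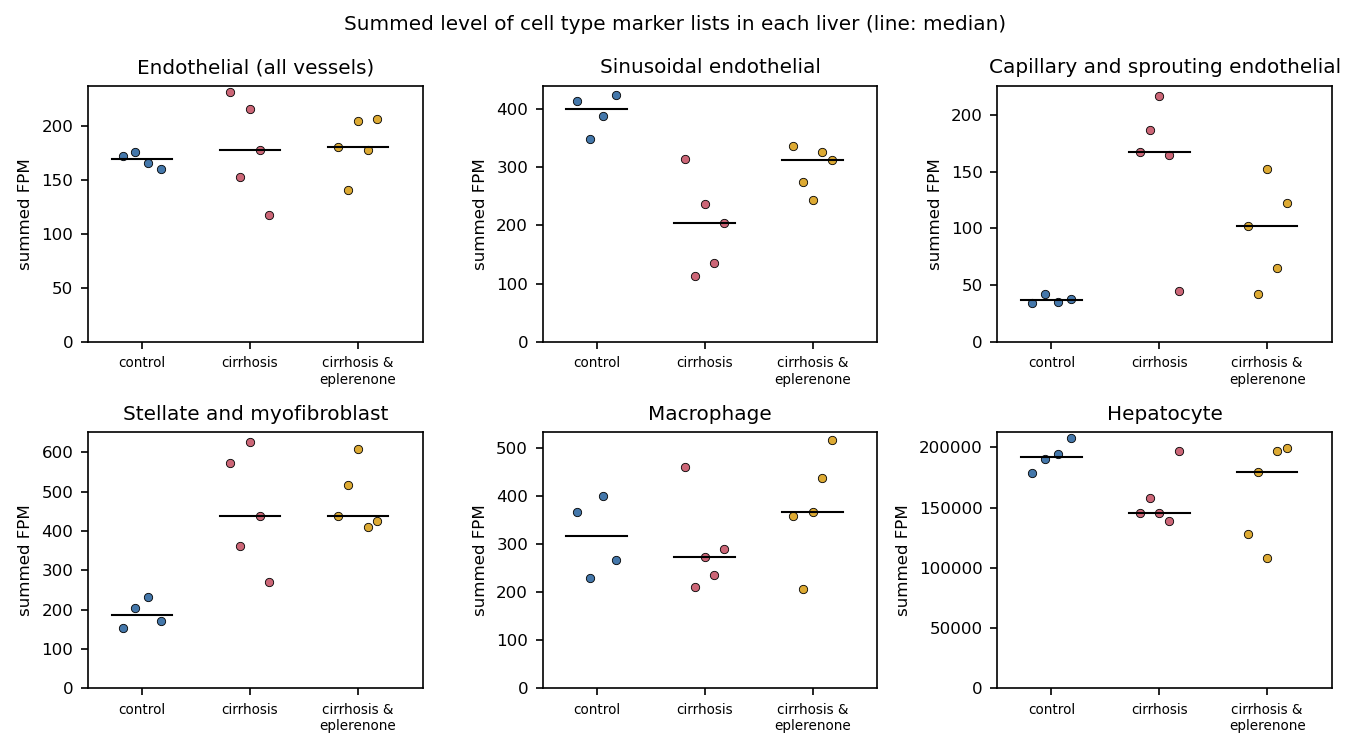
Summed FPM of 6 marker lists (y axis, linear from 0, 1 panel per list) in each liver of control, cirrhosis and cirrhosis & eplerenone, with points for single livers and a line for the median. The sinusoidal sum is below all controls in every cirrhosis liver, at 113 to 314 against 348 to 423 FPM, and the sum over general endothelial markers spans the controls.

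Within the groups, Flt1 and Tek varied together. After each liver was centred on its group mean, their log2 FPM had a Pearson r of 0.95 and a Spearman rho of 0.92 over 14 livers, and r was 0.90 without the 2 livers farthest from the median of Flt1. Among 12292 protein coding genes with a mean of at least 1 FPM, Tek was the gene most like Flt1, and Flt1 the most like Tek. Kdr had an r of 0.06 with Flt1 and -0.02 with Tek. The genes most like Kdr were Col13a1 (r = 0.90) and the sinusoidal ligand Bmp2 (r = 0.86).

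The PDGF genes had other nearest genes, Cd151 (r = 0.97) and Emp3 (0.96) for Pdgfa, LOC103692166 (0.96) and Sema3f (0.94) for Pdgfb, Uvssa (0.90) and LOC108348145 (0.86) for Pdgfc, and Hnrnpa1 (0.91) and Ampd3 (0.89) for Pdgfd. Vegfa was nearest to LOC685067 (0.95) and Mospd2 (0.95), Vegfc to Igfbp7 (0.90) and Ranbp1 (0.88), and Angpt2 to Rhpn1 (0.95) and C5ar1 (0.94). These are descriptions over 14 libraries in which all genes share the depth and cell makeup of a liver, and the genes named are the nearest of a large number.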

How the data were processed

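Whole liver RNA was measured in 4 control, 5 cirrhosis and 5 cirrhosis & eplerenone rats, grouped by the sample titles. The labels list 5 controls, and control replicate 1 was not analysed here. The paper states that 1 control stood apart from the other 4 by principal component analysis and was left out. Statements about all controls therefore cover only the 4 that were kept. The authors selected poly(A) RNA with RIN above 7, read 150 bp from both ends, mapped with HISAT2 2.1.0 to rn6, counted exons with featureCounts 2.0.0, counting multimapping reads at each location, and annotated with BiomaRt 2.44.4 and Ensembl archive 101. The strand setting is not given in the sources used here. The deposited table holds the raw count per gene.

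Counts were filtered with filterByExpr (smallest count 10), scaled by TMM and fitted over 3 groups in edgeR 4.0.16 (R 4.3.3) with the quasi-likelihood test, and the Benjamini-Hochberg adjustment ran over 14417 genes. SE and 95% intervals come from the same test. DESeq2 1.42.0, RLE and total-count scaling, other filters, fits of the 2 groups compared, a replicate block and fits without each liver were alternatives. The ratio of Kdr to Cdh5 was chosen after the data were seen, in place of a pair whose partner was not analysed here. Log2 FPM used a prior count of 2. The fit was tested on simulated data. Replicates are separate animals, and the closest of 26 pairs within a group differed with a chi-square of 25.0 per gene.

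All 10 genes are named, and of each list up to 3 genes with the largest log2FC among those that passed in cirrhosis, except that 1 listed gene is not reported here. The 10 genes and the lists were chosen with earlier results of these data known. Sequences are from RefSeq (GRCr8). Intervals and floors cover these samples and counting error only.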

Additional observations from a re-analysis of the deposited data

How the results depend on the processing

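The calls for Pdgfa, Pdgfb, Vegfa and Kdr between cirrhosis and control held in all 14 fits that left out 1 liver and in every other alternative that kept the gene. With at least 10 counts in every sample, 7 of the 10 genes remained, since Pdgfb, Pdgfd and Angpt2 have lower counts, and the number called was 3 for cirrhosis and 0 for cirrhosis & eplerenone, each against control (17.7% and 3.37% of all genes). Total-count scaling, which moved the median log2FC of all genes to 0.28 and 0.32 in these 2 comparisons, called 4 genes with eplerenone (9.37% of all genes). The replicate numbers did not pair the livers (3 of 13 same-numbered pairs had r above 0.1, from -0.33 to 0.19), and with the replicate block 0 genes were called with eplerenone against control (1.87% of all genes), with Pdgfb at 2.64 (adjusted p = 0.0670, edgeR) and Pdgfd at 1.94 (adjusted p = 0.0669). Without cirrhosis replicate 5 and cirrhosis & eplerenone replicate 3, 1 gene (Pdgfa, whose lowest cirrhosis and highest cirrhosis & eplerenone livers these are) was called between the CCl4-treated groups. Leaving out 1 liver, the number called ranged from 4 to 6 in cirrhosis, from 0 to 3 in cirrhosis & eplerenone (0 without control replicate 2 or 5) and was 0 between the CCl4-treated groups, while the share of all genes called ranged from 9.26% to 32.1%, from 1.5% to 8.88% and from 0% to 0.181%. The cause of these changes was not tested.

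Directions turned for the values below, none of them called in that comparison. The main value farthest from 0 among them was -0.50, for the ratio of Angpt2 to Tek between the CCl4-treated groups. In cirrhosis against control, total counts gave 0.091 for Flt1 and 0.21 for Tek, and Tek ranged from -0.17 to 0.036 when 1 liver or both livers that lay apart were left out. In cirrhosis & eplerenone against control, total counts gave 0.12 for Vegfc and 0.32 for Flt1, the filter on every sample gave 0.0029 for Flt1, Tek was -0.0027 with the replicate block, and leaving out livers gave -0.18 to 0.14 for Flt1 and -0.048 to 0.12 for Tek. Between the CCl4-treated groups, Pdgfd was 0.045 with total counts and 0.15 with the label prefix as a factor, and leaving out livers gave -0.029 to 0.32 for Pdgfc, -0.91 to 0.086 for Pdgfd, -0.16 to 0.34 for Flt1, -0.083 to 0.21 for Tek, -1.34 to 0.036 for the ratio of Angpt2 to Tek and -0.52 to 0.13 for that of Pdgfb to Pdgfrb. Of 691 log2FC values of single genes under the alternatives, 636 kept direction and side of the threshold. Counts of 4 to 13 for Pdgfb and 3 for Angpt2 limit the precision of these genes.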
